A study of Rattus norvegicus with 5 samples.

Results

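The genes described here encode enzymes of fatty acid oxidation and ketone metabolism, with a small number of their regulators, in fat of the rat mesentery that surrounds the pancreas. They were taken from a list of 35 genes by gene symbol: a gene was represented by a probe set that the array annotation assigns to that symbol alone, and the brightest such probe set, by its mean on all arrays, was used where a gene had several. By this rule 34 of the 35 were found, among 14217 genes with such a probe set. Acaa1a, a peroxisomal thiolase, lies only on a probe set shared with a second gene and is not analysed here. Of the 34, 32 passed a filter on dim signals and entered the test, with 11509 genes in all, and Acot1 and Ppara did not pass.

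The tissue came from male Wistar rats that were 7 weeks old at the start and were caged singly. The 2 cafeteria samples, labelled obese, came from rats on a cafeteria diet in which fat supplied 66% of the calories. The 3 standard samples, labelled lean, came from rats on standard chow in which fat supplied 8%. Both diets lasted 30 days, and each of the 5 Affymetrix arrays carried 1 independent sample of whole tissue, so that all cell types of the depot contributed RNA. Values are log2 expression levels, on which 1 unit is a doubling, and differences are cafeteria minus standard. In such tissue, fewer cells of a type and less RNA per cell cannot be told apart. The fat cell hormone Adipoq read 13.11 and 13.28 in cafeteria samples, against 12.94, 13.09 and 13.08 in standard samples. Standard replicate 1 stood apart in genes of the exocrine pancreas: Pnlip, the pancreatic lipase, read 4.45 and 4.45 in cafeteria samples, against 4.23 and 4.45 in the other standard samples and 10.11 on that array.

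Fatty acids reach the mitochondrial matrix as acylcarnitines, made and unmade by carnitine acyltransferases, and are then shortened in repeated rounds of dehydrogenation, hydration, a further dehydrogenation and thiolytic cleavage. Electrons from the first step pass through the electron transfer flavoprotein to the respiratory chain, and peroxisomes shorten very long and branched chains by a parallel route. White fat cells mainly store and release fatty acids, but they also oxidise some of them, and many of the genes of this pathway are targets of PPAR nuclear receptors, which bind paired copies of a short DNA motif.

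The promoters of the members were searched for that motif. They ran from 250 bases before to 50 bases after the gene start, were taken from RefSeq on build GRCr8, and matched 31 of the 35 members by symbol; Cpt1b, Acadl, Decr1 and Acaa2 were not matched. The motif was 2 direct copies of AGGTCA with 1 base between them, on either strand. An exact copy was in 0 of the 31 promoters and in 0.0538% of the 33469 promoters of the table. With up to 2 of the 12 letters different, a tolerance chosen after the design was written, it was in 5 of the 31 (16.1%) and in 3.77% of all promoters. A single AGGTCA, which overlaps the paired motif, was in 6 of the 31 (19.4%) and in 16.2% of all promoters. These are letter matches, not shown binding sites. The 5 matches are printed 5′ to 3′ on the strand of the match with the aligned letters in capitals, to show how far each keeps the motif: Acadvl at chr10:55236702-55236730, strand -, Echs1 at chr1:204333641-204333669, strand +, Crat at chr3:34087302-34087330, strand -, Etfa at chr8:64788099-64788127, strand +, and Slc25a20 at chr8:118243580-118243608, strand +.
Acadvl: gggagaagAGGTCAgTGGTCAaggcttca
Echs1: ggaagatcAGATCAgAGGTCTtttagcgg
Crat: gacgttcaAGGACAcCGGTCAgacttgga
Etfa: ttgggagtAGGGCAaAGGTAAgggtgtgc
Slc25a20: cttaatgtAGGTGAaAGGTCGgtgtagcc
Of these, the Acadvl match kept 11 of the 12 letters, starting 17 bases before the gene start, and the other 4 kept 10.

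Between the diets, 30 of the 32 genes tested had a higher mean in cafeteria samples, and Crot and Acot2 a lower one. Among all genes tested, 49.2% were higher in cafeteria samples. The median difference of the members was 0.24, against 0.00 (-0.0027) over all genes tested, and single members ranged between -0.05 for Acot2 and 0.69 for Bdh1. No member passed an adjusted p of 0.05 in limma (0 of 32), and neither did any probe set of the whole table (0%), in which the smallest adjusted p was 0.0958 and 2754 of 21729 probe sets had an unadjusted p under 0.05. The adjusted p of the members lay between 0.222 for Bdh1 and 0.974 for Crot. An unadjusted p under 0.05 was reached by 7 members, all higher in cafeteria samples, where 6.73% of all genes reached it in that direction and 6.88% in the other. These were Bdh1, Hsd17b4, Cpt1b, Acox3, Crat, Decr1 and Etfb.

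**Figure D1:**
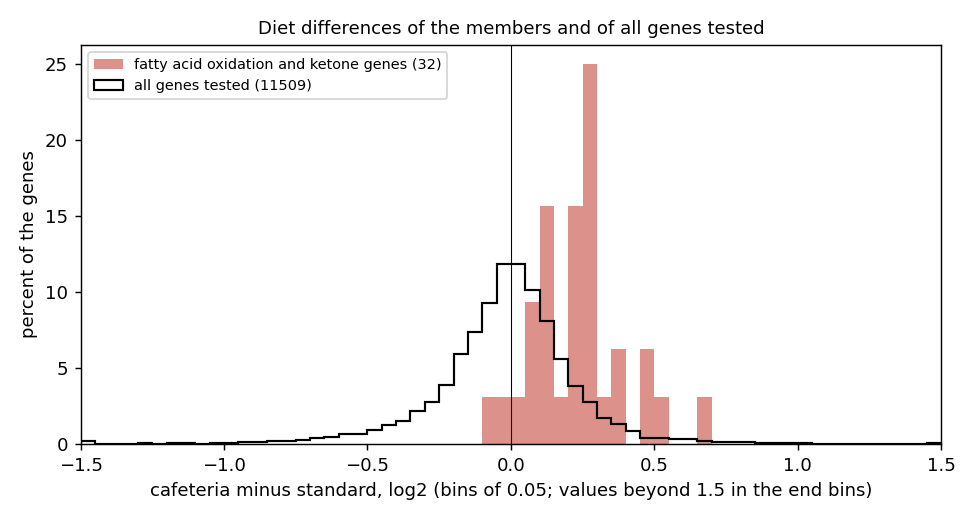
Histogram of the diet difference (x axis, cafeteria minus standard, log2, in bins of 0.05, with values beyond 1.5 in the end bins) as a percentage of genes (y axis), for the 32 fatty acid oxidation and ketone genes tested (filled) and for all 11509 genes tested (line). The members centre on 0.24 and all genes on 0.00, and 30 of the 32 members lie right of 0.

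The arrays of the 2 diets did not overlap for 16 of the 32 members, with both cafeteria arrays above all 3 standard arrays each time. Over all genes tested, 14.7% were arranged so, and 14.7% were arranged the other way, which no member was. The size of these differences depended on the array. Cafeteria replicate 2 read above cafeteria replicate 1 for 26 of 32 members, against 46.7% of all genes, and it was the highest of the 5 arrays for 25 of 32, against 24.5% of all genes. Standard replicate 1 was the lowest of the 5 arrays for 19 of 32 members, against 21.4% of all genes. Without cafeteria replicate 2 the median difference was 0.13 with 27 of 32 higher, against 50.1% of all genes. Without cafeteria replicate 1 the median was 0.34 with 29 higher, against 48.4% of all genes. Leaving out standard replicate 1 gave a median of 0.17 with 30 higher, against 48.6% of all genes. There 7 members had an unadjusted p under 0.05 in limma, all higher, where 4.75% of all genes were higher at that level. Leaving out standard replicate 2 gave 0.23 with 30 higher, against 49.5% of all genes. There 4 members were at that level, all higher, where 4.95% of all genes were.

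**Figure D2:**
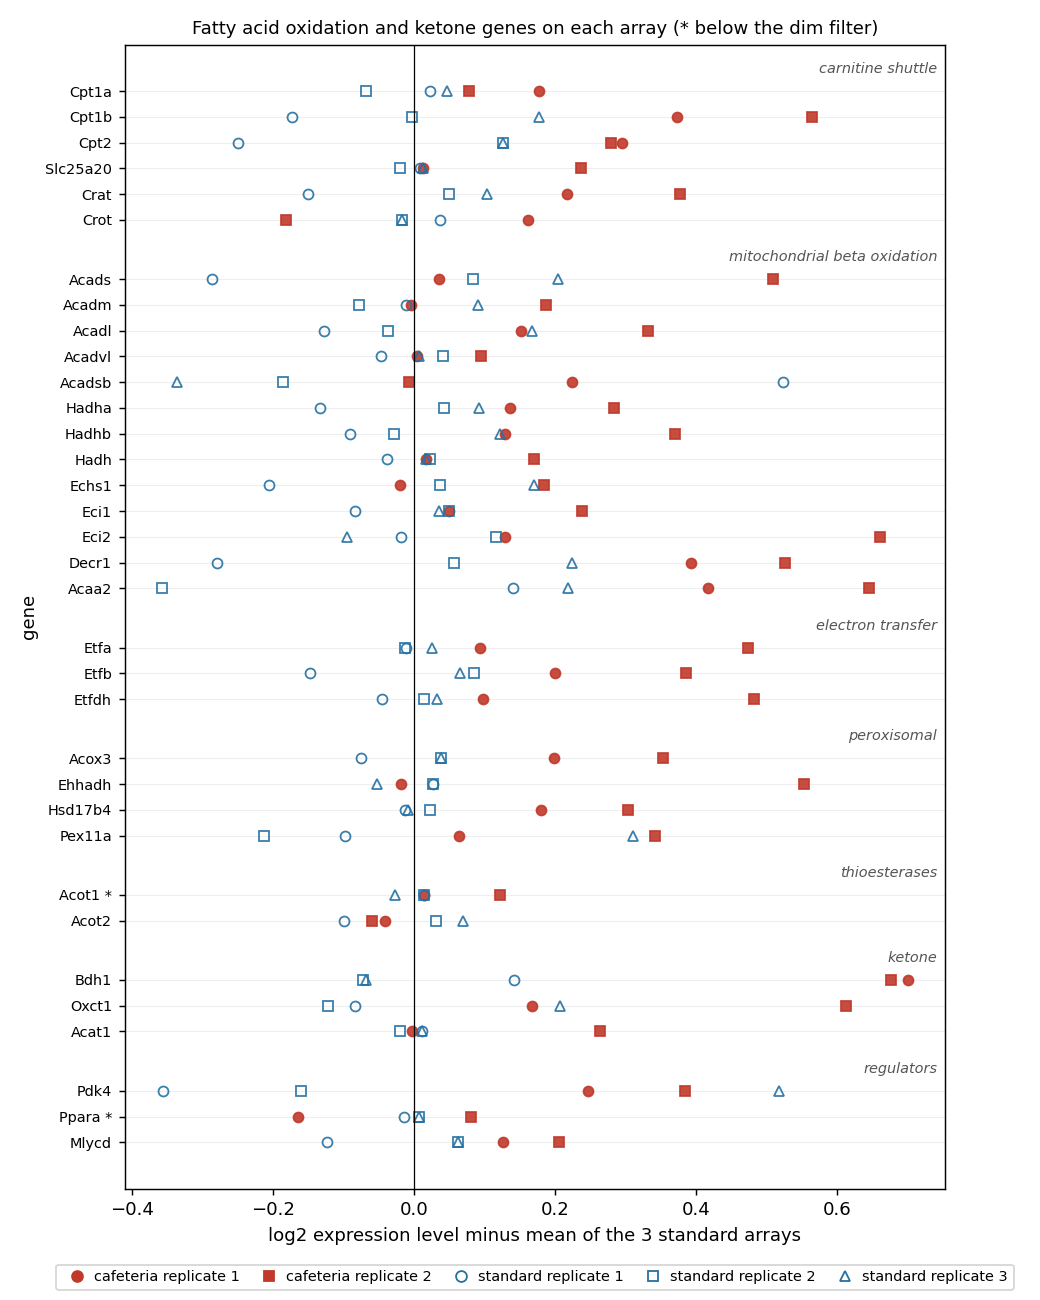
Each row is a gene of the pathway and each symbol an array, at its log2 expression level minus the mean of the 3 standard arrays (x axis); filled symbols are cafeteria samples and open symbols standard samples, and an asterisk marks the 2 genes below the filter. The filled square, cafeteria replicate 2, is the rightmost symbol for most genes, and the open circle, standard replicate 1, is often the leftmost.

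Marker lists of the cell types in the tissue moved too. Fat cell markers, 17 of 18 listed genes measured, were higher in cafeteria samples for 14, with a median difference of 0.33, or 0.22 without standard replicate 1. The log2 of their summed unlogged levels was 16.33 and 16.49 in cafeteria samples, against 16.06 to 16.26 in standard samples. Like the oxidation genes, they were lowest on standard replicate 1 and highest on cafeteria replicate 2. Endothelial markers, 10 of 12 measured, were all lower, by a median of -0.45, with summed levels of 11.77 and 12.30 in cafeteria samples against 12.42 to 12.50 in standard samples. Acinar markers of the pancreas, 16 of 23 past the filter, had summed levels of 10.26 and 9.88 in cafeteria samples, against 9.67 and 10.19 on 2 standard arrays and 13.08 on standard replicate 1. Without standard replicate 1, 30 of the 32 oxidation genes were higher, against 48.6% of all genes. Their median was then 0.17, against 0.24 with all arrays. Fibroblast and progenitor markers, 9 of 10 past the filter, were higher for 6, with a median of 0.11. Their summed levels were 14.98 and 14.94 in cafeteria samples against 14.72 to 14.81 in standard samples. Mesothelial markers, 8 of 10 past the filter, were higher for 6, with a median of 0.10. Their summed levels were 13.23 and 12.25 in cafeteria samples against 12.73 to 12.81 in standard samples. Markers of immune and vessel wall cells were mostly lower in cafeteria samples. All 10 mast cell markers past the filter (of 11) were lower, with a median of -0.64 and summed levels of 11.80 and 10.99 in cafeteria samples against 11.65 to 12.44 in standard samples. All 10 T cell markers (of 12) were lower, with a median of -0.49 and summed levels of 9.29 and 8.80 in cafeteria samples against 9.17 to 9.80 in standard samples. For macrophages, 10 of 11 markers were lower (median -0.22), with summed levels of 13.33 and 13.18 in cafeteria samples against 13.31 to 13.73 in standard samples. For smooth muscle and pericytes, 10 of 11 were lower (median -0.71), with summed levels of 12.35 and 12.18 in cafeteria samples against 11.82 to 14.36 in standard samples. Of 8 B cell markers 3 passed, with summed levels of 7.77 and 6.96 in cafeteria samples against 7.30 to 7.80 in standard samples. Mast, T and B cell markers were lowest on cafeteria replicate 2, the array on which the oxidation genes were mostly highest. The part of these cell types in the differences of the oxidation genes was not tested. For brown fat, 4 of 11 markers passed the filter, of which 3 were higher and 1 lower, with a median of 0.19. Their summed levels were 10.67 and 10.82 in cafeteria samples against 10.20 to 10.68 in standard samples. The defining brown fat gene Ucp1 read 3.61 on both cafeteria arrays, against 3.61, 3.72 and 3.61 on the standard arrays. These Ucp1 values lay below the filter and below the median of every array. For striated muscle, 6 of 17 markers passed, of which 4 were higher and 2 lower, with a median of 0.22. Their summed levels were 10.69 and 10.97 in cafeteria samples against 10.37 to 10.75 in standard samples. The muscle creatine kinase Ckm was below the filter. A log2 level in these files has no zero, so no marker could be read as absent.

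**Figure D3:**
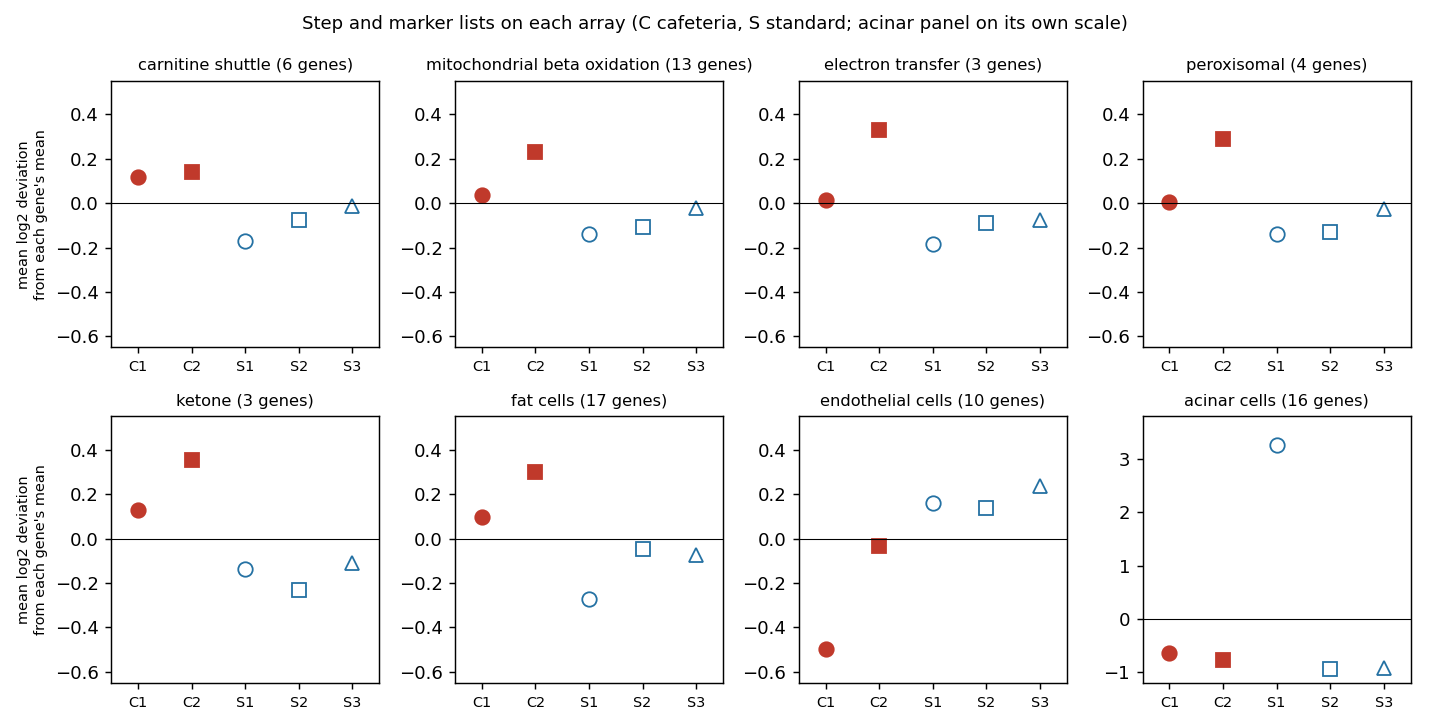
Mean log2 deviation from each gene's own mean over the arrays (y axis) for 5 steps of the pathway and for markers of fat, endothelial and acinar cells, on each array (x axis; C1 and C2 cafeteria, filled; S1 to S3 standard, open). The acinar panel has its own scale. The 5 steps and the fat cell markers lie highest on C2, and the carnitine shuttle alone has C1 and C2 nearly level, at 0.12 and 0.14.

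The carnitine shuttle moves acyl groups across the mitochondrial membranes, and 5 of its 6 genes were higher in cafeteria samples, with a median difference of 0.21. Cpt1b encodes the form of the outer membrane acyltransferase named for muscle, which makes acylcarnitines in the step that malonyl-CoA restrains. It read 7.80 and 7.99 in cafeteria samples, against 7.25, 7.42 and 7.60 in standard samples. The 2 groups did not overlap, and the difference was 0.47 ± 0.13 (SE), or 1.38-fold, with a 95% interval of 0.12 to 0.81 (limma, adjusted p = 0.315; exact permutation test, two-sided, p = 0.1, the smallest that the 10 arrangements of 5 arrays allow).

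Cpt1a, the liver form of the same enzyme, read 8.86 and 8.76 in cafeteria samples, against 8.71, 8.61 and 8.73 in standard samples, a difference of 0.13 ± 0.07 (adjusted p = 0.487). Its second probe set differed by 0.00 ± 0.13 and overlapped between diets. The log2 ratio of Cpt1b to Cpt1a was higher in cafeteria samples by 0.34, with no overlap of the groups (exact permutation test, two-sided, p = 0.1). That permutation p was 0.3 after Benjamini-Hochberg adjustment over 3 pairs of related members compared in this way. The ratio used the brighter Cpt1a probe set and was not tested with the second, so its separation may depend on that choice. It was not among the planned tests.

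Crat, which exchanges acetyl groups between coenzyme A and carnitine, read 8.73 and 8.89 in cafeteria samples, against 8.36, 8.56 and 8.62 in standard samples. Its difference was 0.30 ± 0.11 (adjusted p = 0.371), with no overlap. Cpt2, the inner membrane enzyme that hands the acyl group back to coenzyme A, differed by 0.29 ± 0.14, with no overlap either. It read 8.69 and 8.67 in cafeteria samples, against 8.14, 8.52 and 8.52 in standard samples, so standard replicate 1 lay apart, and without that array the difference was 0.16. Slc25a20, the carrier that exchanges acylcarnitine for carnitine, read 8.24 and 8.46 in cafeteria samples, against 8.23, 8.21 and 8.24 in standard samples. Its difference of 0.12 ± 0.08 came from cafeteria replicate 2 and was 0.012 without it. Crot, the octanoyltransferase of peroxisomes, read 9.43 and 9.09 in cafeteria samples, on either side of 9.31, 9.25 and 9.25 in standard samples, a difference of -0.01 ± 0.12. A second Crot probe set past the filter gave 0.08.

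All 13 genes of the mitochondrial spiral were higher in cafeteria samples, with a median difference of 0.21, which was 0.13 without cafeteria replicate 2, when 11 were higher, and 0.14 without standard replicate 1, when 12 were. The arrays of the 2 diets did not overlap for 5 of them, Hadha, Hadhb, Eci2, Decr1 and Acaa2. Of all genes tested, 14.7% had both cafeteria arrays above all standard arrays. Decr1 alone reached an unadjusted p under 0.05 in limma, where 6.73% of all genes were higher at that level.

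The acyl-CoA dehydrogenases, which open each round and are divided by chain length, all overlapped between diets. The difference was 0.05 ± 0.06 for Acadvl, which takes very long chains, and 0.24 ± 0.12 for Acadl, which takes long ones. It was 0.09 ± 0.09 for Acadm, which takes medium ones, and 0.27 ± 0.22 for Acads, which takes short ones. The order of these values was not that of chain length, but their errors are wide and an order was not tested. Without cafeteria replicate 2 the first 3 of these differences were 0.0036 for Acadvl, 0.15 for Acadl and -0.0048 for Acadm. Acads read 8.30 and 8.77 in cafeteria samples, against 7.97, 8.35 and 8.47 in standard samples, so that its cafeteria mean rested on replicate 2, and its difference was 0.03 without that array. Acadsb, which acts on short branched chains from isoleucine, read 8.97 and 8.74 in cafeteria samples, against 9.27, 8.56 and 8.41 in standard samples. Standard replicate 1 was the highest array for this gene, in contrast to most others, and the difference of 0.11 ± 0.29 was 0.37 without it.

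Hydration and the second dehydrogenation are carried out for long chains by the trifunctional protein, made of the subunits encoded by Hadha and Hadhb, and for shorter chains by Echs1 and Hadh. Hadha read 10.40 and 10.55 in cafeteria samples, against 10.13, 10.31 and 10.36 in standard samples. Hadhb read 11.30 and 11.54 in cafeteria samples, against 11.08, 11.14 and 11.29 in standard samples. Neither gene overlapped between diets, although cafeteria replicate 1 exceeded standard replicate 3 by little in both. The differences were 0.21 ± 0.10 for Hadha and 0.25 ± 0.11 for Hadhb (limma, adjusted p = 0.461 and 0.448), and without cafeteria replicate 2 they were 0.14 and 0.13.

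The log2 ratio of Hadha to Hadhb spanned 0.16 over the 5 arrays and differed between diets by -0.04 (exact permutation test, two-sided, p = 0.6, adjusted 0.9). The pair was compared after its values had been seen. Acadl took a like course, with 10.35 and 10.53 in cafeteria samples, against 10.07, 10.16 and 10.37 in standard samples. Whether the span is small among pairs of members was not tested, nor was any part of the promoter in it. Hadha and Hadhb are divergent neighbours in RefSeq, with gene starts 301 bases apart on build GRCr8. Their promoter windows share 200 bases at chr6:31907551-31907750, shown here on the + strand, which is that of Hadha. The stretch holds 0 copies of AGGTCA on either strand.
Hadha and Hadhb: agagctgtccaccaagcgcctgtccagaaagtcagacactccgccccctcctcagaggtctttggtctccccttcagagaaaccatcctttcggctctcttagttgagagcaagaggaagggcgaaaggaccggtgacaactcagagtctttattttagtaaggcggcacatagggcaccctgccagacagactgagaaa
A second Hadha probe set past the filter, which read below the median of every array, gave -0.15 ± 0.09, the opposite sign.

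Echs1, the hydratase for short chains, read 10.08 and 10.28 in cafeteria samples, against 9.89, 10.14 and 10.27 in standard samples. The groups overlapped, and its difference of 0.08 ± 0.14 was -0.02 without standard replicate 1 and -0.02 without cafeteria replicate 2. Hadh, the dehydrogenase for shorter chains, differed by 0.09 ± 0.07, also with overlap, and by 0.016 without cafeteria replicate 2.

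Unsaturated fatty acids need auxiliary enzymes, and the 3 among the members differed by 0.14 to 0.46. Decr1, the dienoyl-CoA reductase, read 11.62 and 11.75 in cafeteria samples, against 10.95, 11.28 and 11.45 in standard samples. The groups did not overlap, and the difference was 0.46 ± 0.17, or 1.37-fold, with a 95% interval of 0.01 to 0.91 (limma, adjusted p = 0.384; exact permutation test, two-sided, p = 0.2). Standard replicate 1 had the lowest value, and without it the difference was 0.32. Eci2, an enoyl-CoA isomerase found in mitochondria and peroxisomes, read 9.67 and 10.21 in cafeteria samples, against 9.52, 9.66 and 9.45 in standard samples. Cafeteria replicate 1 was only just above standard replicate 2, and the difference of 0.39 ± 0.18 was 0.13 without cafeteria replicate 2. Eci1, the mitochondrial isomerase, differed by 0.14 ± 0.09, or 0.049 without cafeteria replicate 2, and its value was equal on cafeteria replicate 1 and standard replicate 2.

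Acaa2, a mitochondrial thiolase that carries out the cleavage step, mainly for shorter chains, differed by more than any other gene of the spiral. It read 11.31 and 11.54 in cafeteria samples, against 11.04, 10.54 and 11.12 in standard samples. The groups did not overlap, and the difference was 0.53 ± 0.21, or 1.44-fold, with a 95% interval of -0.02 to 1.08 (limma, adjusted p = 0.407). Standard replicate 2 was the lowest array here, and without it the difference was 0.35. A second, dimmer Acaa2 probe set had the same order, with 6.60 and 6.72 in cafeteria samples against 6.10, 5.81 and 6.31 in standard samples, and differed by 0.59 ± 0.16.

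The 3 genes of electron transfer had nearly equal differences. Etfa and Etfb encode the subunits of the electron transfer flavoprotein, and Etfdh encodes the membrane enzyme that passes its electrons to ubiquinone. Etfb read 10.78 and 10.96 in cafeteria samples, against 10.43, 10.66 and 10.64 in standard samples. Etfa read 10.80 and 11.18 in cafeteria samples, against 10.69, 10.69 and 10.73 in standard samples. Etfdh read 9.17 and 9.55 in cafeteria samples, against 9.02, 9.08 and 9.10 in standard samples. None of the 3 overlapped between diets, where 14.7% of all genes tested had both cafeteria arrays above all standard arrays. Their differences were 0.28 ± 0.12 for Etfa, 0.29 ± 0.11 for Etfb and 0.29 ± 0.13 for Etfdh (limma, adjusted p = 0.449, 0.385 and 0.449). For Etfdh the standard arrays were close together and the cafeteria arrays apart (SD 0.27, n = 2, in cafeteria samples and 0.041, n = 3, in standard samples). The log2 ratio of Etfa to Etfb, likewise compared after its values had been seen, differed between diets by -0.009 (exact permutation test, two-sided, p = 0.9). Much of the difference of the 3 genes came from cafeteria replicate 2: without it the median of the 3 genes was 0.10, and without cafeteria replicate 1 it was 0.47.

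**Figure D4:**
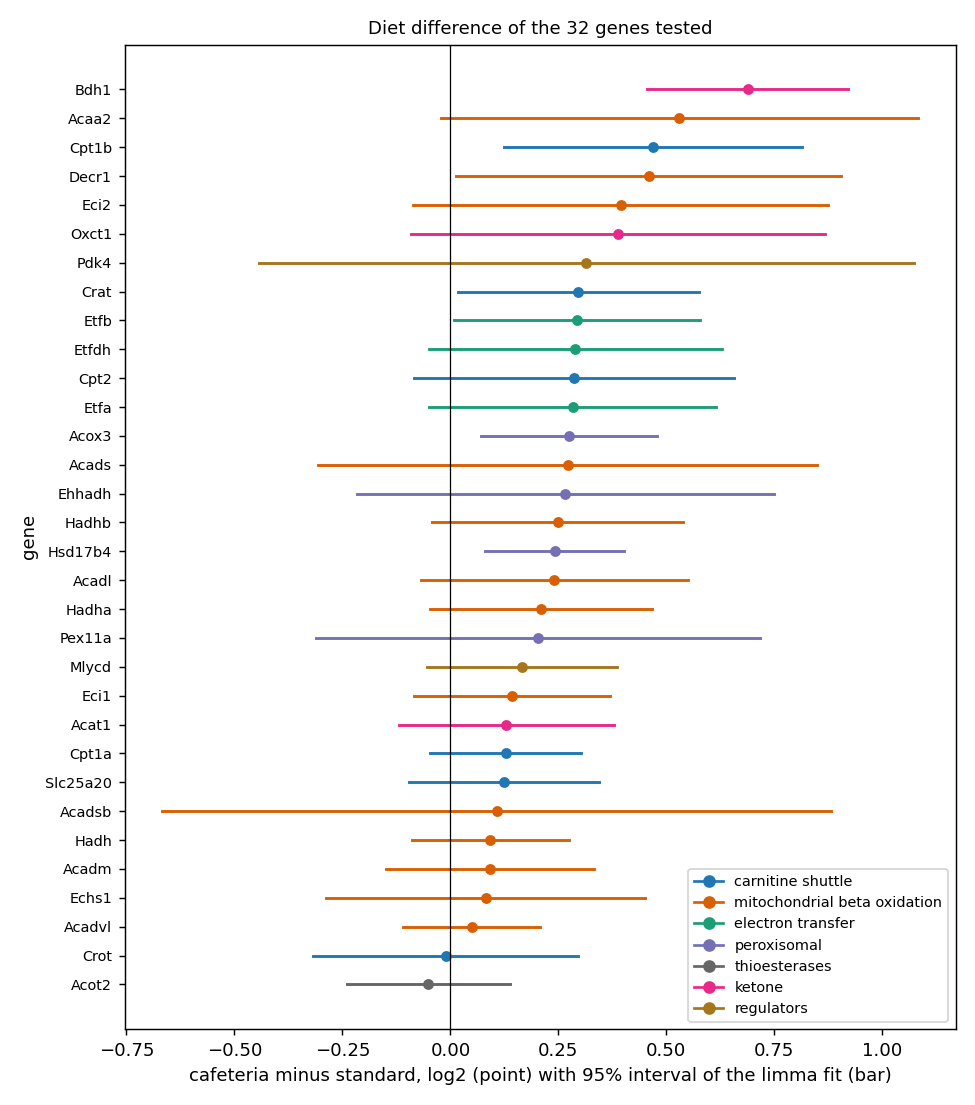
Diet difference of each of the 32 genes tested (x axis, cafeteria minus standard, log2; point) with its 95% interval from limma (bar), ordered by size and coloured by step. The intervals of Bdh1, Cpt1b, Decr1, Crat, Etfb, Acox3 and Hsd17b4 lie above 0, and no gene passed an adjusted p of 0.05.

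Of the 5 peroxisomal members, 4 were measured and all 4 were higher in cafeteria samples, with a median difference of 0.25, which was 0.12 without cafeteria replicate 2. Hsd17b4, a bifunctional enzyme that hydrates and dehydrogenates very long and branched chains, read 10.41 and 10.54 in cafeteria samples, against 10.22, 10.25 and 10.22 in standard samples. The standard arrays were close together and the groups did not overlap, with a difference of 0.24 ± 0.06, or 1.18-fold, and a 95% interval of 0.08 to 0.40 (limma, adjusted p = 0.293; exact permutation test, two-sided, p = 0.1). Acox3, an acyl-CoA oxidase that starts the round for branched chains, read 5.79 and 5.94 in cafeteria samples, against 5.51, 5.63 and 5.63 in standard samples. The groups did not overlap either, and the difference was 0.28 ± 0.08 (adjusted p = 0.316). Standard replicates 2 and 3 carried the identical Acox3 value, which narrows the spread that the test sees.

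Ehhadh, the other bifunctional enzyme, read 5.67 and 6.24 in cafeteria samples, against 5.72, 5.72 and 5.64 in standard samples. Only cafeteria replicate 2 stood above the standard arrays, and the difference of 0.27 ± 0.18 was -0.02 without it. Pex11a, which takes part in peroxisome division, read 9.09 and 9.37 in cafeteria samples, against 8.93, 8.82 and 9.34 in standard samples, and the diets overlapped. Its difference of 0.20 ± 0.19 was 0.064 without cafeteria replicate 2, 0.096 without standard replicate 2 and 0.36 without standard replicate 3. A second Pex11a probe set gave 0.29 ± 0.21, with overlap as well.

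The thioesterases Acot1 and Acot2 cut acyl-CoA back to free fatty acid, Acot1 in the cytosol and Acot2 in mitochondria. Acot2 read 8.05 and 8.04 in cafeteria samples, against 8.00, 8.13 and 8.17 in standard samples. Both cafeteria values lay inside the standard range, with a difference of -0.05 ± 0.07 and a 95% interval of -0.24 to 0.14. Its other probe sets past the filter gave 0.12 and 0.04. Acot1 had 3.13 and 3.23 in cafeteria samples, against 3.13, 3.13 and 3.08 in standard samples, below the median of every array and below the filter. The 2 genes are close relatives, and a further probe set shared by both was left out because it cannot tell them apart.

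The largest difference of all members, when each gene was read on its brightest probe set, was in ketone metabolism. Bdh1, the mitochondrial dehydrogenase that interconverts acetoacetate and beta-hydroxybutyrate, read 5.25 and 5.23 in cafeteria samples, against 4.69, 4.48 and 4.48 in standard samples. The cafeteria arrays were nearly equal (SD 0.017, n = 2, against 0.12, n = 3, in standard samples) and stood above every standard array, and the difference was 0.69 ± 0.09, or 1.61-fold, with a 95% interval of 0.45 to 0.92 (limma, adjusted p = 0.222; exact permutation test, two-sided, p = 0.1). Of all genes tested, 1.09% had a larger difference. Unlike most members it did not rest on 1 array, with 0.65 to 0.76 when any array was left out. All its values lay below the median of the arrays. Its second probe set, also dim, read 4.75 and 4.93 in cafeteria samples, against 4.61, 4.72 and 4.72 in standard samples. The order of the diets was the same there but the difference was 0.16 ± 0.08, and the mean of both probe sets gave 0.42. With probe sets averaged for every gene, Bdh1 was no longer first: Acaa2 (0.56), Cpt1b (0.47) and Decr1 (0.46) had larger differences.

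Oxct1, the transferase that commits acetoacetate to oxidation outside the liver, read 10.57 and 11.02 in cafeteria samples, against 10.32, 10.28 and 10.61 in standard samples. Standard replicate 3 lay above cafeteria replicate 1, and the difference of 0.39 ± 0.18 (adjusted p = 0.464) was 0.17 when cafeteria replicate 2 was left out and 0.61 when replicate 1 was. Acat1, the thiolase that splits acetoacetyl-CoA, read 10.26 and 10.52 in cafeteria samples, against 10.27, 10.24 and 10.27 in standard samples, so that only cafeteria replicate 2 was high, and its difference of 0.13 ± 0.09 was -0.0037 without that array. A second Acat1 probe set gave 0.31 ± 0.18, with overlap between diets.

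Among the regulators, Pdk4, the kinase that turns off pyruvate dehydrogenase when fat is the fuel, read 8.92 and 9.06 in cafeteria samples, against 8.32, 8.51 and 9.19 in standard samples. Standard replicate 3 was the highest array of all, and the difference was 0.31 ± 0.29 (adjusted p = 0.607), or 0.57 without that array and 0.14 without standard replicate 1. Its second probe set gave 0.15 ± 0.07, without overlap of the diets. Mlycd, the decarboxylase that removes the Cpt1 inhibitor malonyl-CoA, read 8.55 and 8.62 in cafeteria samples, against 8.30, 8.48 and 8.48 in standard samples. These did not overlap, and the difference was 0.17 ± 0.08 (adjusted p = 0.479). Ppara, the nuclear receptor that drives this pathway in rodent liver, read 3.54 and 3.78 in cafeteria samples, against 3.69, 3.71 and 3.71 in standard samples. These values lie below the filter and below the median of every array, so the array gave no usable comparison for it.

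Beyond the members, 112 further genes of the pathway were tested of 137 listed. Of these, 73 were higher in cafeteria samples, against 49.2% of all genes tested, with a median difference of 0.10. No gene of them passed an adjusted p of 0.05 in limma, and 17 reached an unadjusted p under 0.05 with a higher mean and 1 with a lower mean. Among all genes tested, 6.73% reached it with a higher mean and 6.88% with a lower one. By group, 23 of 30 further peroxisomal genes were higher (median 0.14), 13 of 19 further mitochondrial acyl-CoA enzymes (median 0.10), 5 of 10 genes of acyl-CoA synthesis and carnitine supply (median 0.01), 4 of 6 further ketone genes, 4 of 7 further thioesterases and 15 of 30 further regulators (median 0.00, at -0.00075). Genes that PPARA controls in rodent tissues, a list that overlaps the others, were higher for 11 of 12 (median 0.25), against 49.2% of all genes tested.

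Acsl1, which activates long-chain fatty acids in fat cells, read 12.82 and 12.93 in cafeteria samples, against 12.31, 12.43 and 12.49 in standard samples, a difference of 0.46 ± 0.08 with no overlap (limma, adjusted p = 0.246). Ech1, a dienoyl-CoA isomerase, read 11.47 and 11.47 in cafeteria samples, against 11.31, 11.04 and 11.20 in standard samples, and differed by 0.28 ± 0.10, also with no overlap. The coactivators of the pathway pointed in opposite directions. Ppargc1b differed by 0.33 ± 0.12, with no overlap, while Ppargc1a differed by -0.33 ± 0.24 and overlapped (limma, adjusted p = 0.388 and 0.535). Slc22a5, the carnitine transporter of the cell membrane, differed by 0.16 ± 0.17, with overlap. Acacb, which makes malonyl-CoA at the mitochondrion, and the peroxisomal oxidase Acox2 were below the filter.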

How the data were processed

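Log2 expression levels were used as the authors deposited them, 1 value per probe set and array, for 2 cafeteria and 3 standard arrays. The submitters' processing notes name RMA and affy, with no versions. RMA makes array distributions alike, so a shift of most transcripts would not show. No total counts exist for arrays, and their number limits the precision.

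After removal of 57 control probe sets, those with a mean over all arrays above the 30th percentile (4.28) were kept, 21729 in all. Diets were compared with limma 3.58.1 (lmFit, eBayes, R 4.3.3), two-sided, adjusted by Benjamini-Hochberg over all of them, without pairing. Gene counts use 1 probe set per gene. The fit was tested on simulated data. Single genes also had an exact permutation test. Between any 2 arrays 11.7% to 14.7% of values were identical, as were values of 2 or more arrays for 9 of 32 members. The limma p-values set each difference against the spread between these samples, moderated over all probe sets tested. The permutation p-values set it against all arrangements of the arrays.

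Members and lists were chosen with earlier results of these data known. All members are named, with further genes fixed by name, some of which are not reported here. Planned protein sequences are not used here. Alternatives are given in the closing section. Figures used matplotlib 3.10.9.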

Additional observations from a re-analysis of the deposited data

How the results depend on the processing

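No member passed an adjusted p of 0.05 under any of 14 alternatives, although 4 genes of the whole table did when the probe sets of a gene were averaged, against 0 otherwise. Of 32 members, 25 kept 1 sign throughout. The count of members higher in cafeteria samples stayed between 27 and 32. The count at an unadjusted p under 0.05, 7 in all, was 3 with no moderation of the variance. Of all genes, 4.98% were then higher at that level. The count was 4 to 8 when each standard array was left out in turn, where 4.75% to 5.17% of all genes were higher at that level. No such count is given without a cafeteria array, because that diet is then left with 1 array. The stability of the count to the cafeteria arrays is therefore not shown. With each array left out, members without overlap numbered 17 to 28, and the median difference was 0.13 to 0.34. Fewer arrays make separation easier. Of all genes, 18.3% to 18.7% had cafeteria arrays above all standard arrays when a standard array was left out. That share was 29.9% without cafeteria replicate 1, where 28 members did, and 29.2% without cafeteria replicate 2, where 17 did. Under quantile normalization it was 25.7%, while the members stayed at 16. Signs turned when arrays were left out for Crot (-0.18 to 0.16), Acadm (-0.0048 to 0.19), Acadsb (-0.061 to 0.37), Echs1 (-0.022 to 0.18), Ehhadh (-0.019 to 0.55) and Acat1 (-0.0037 to 0.26), and when probe sets were averaged for Crot (0.15) and Acot2 (0.034). The cause was not tested.

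The title numbers are shared by the diets but are not known to pair animals. Deviations of same-numbered arrays correlated at 0.12 and 0.029, and those of cafeteria replicate 2 and standard replicate 3 at 0.10. With 2 cafeteria arrays, the deviations of 1 mirror those of the other, so these correlations cannot decide on pairing. With the replicate block, 10 members reached an unadjusted p under 0.05 in limma, all higher, where 4.94% of all genes were higher at that level. The median was 0.30, and Acadsb was -0.061. Dim genes such as Acot1 and Ppara limit what these arrays can show, and a diet left with 1 array was assumed to vary like the other.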
